A study of Mus musculus with 2 samples.

Results

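The 9 genes described here, Slc4a1, Alas2, Klf1, Tal1, Epor, Tfrc, Nfe2, Hemgn and Gfi1b, are genes of red blood cell formation that do not encode a globin chain. They were taken by symbol, 9 of 22096 symbols in the deposited tables, and all 9 were present with a usable estimate in both libraries. RNA was sequenced from forelimb cells of E13.5 mouse embryos, whose strain background is given as mixed, and which were sorted by flow cytometry on ScxGFP, a green fluorescent reporter of the tendon transcription factor gene Scx. For each sample 6 forelimbs (3 pairs) were pooled, and the ScxGFP-positive and the ScxGFP-negative cells gave 1 library each. The ScxGFP-negative group holds whatever forelimb cells lacked reporter signal, so it is a mixture defined by exclusion, and the labels give no treatment, no sex and no step to remove blood. Scx stood at 134 FPKM in the former and 1.69 FPKM in the latter, which matches the labels.

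In developing red cells, erythropoietin acts through its receptor on precursors, and the factors GATA1, TAL1 and KLF1 switch on the genes for haemoglobin, haem synthesis, iron uptake and the red-cell membrane. Iron enters through the transferrin receptor, passes into the mitochondrion and is placed in haem, whose first step in the erythroid lineage is run by ALAS2. At this stage of gestation blood circulating in a mouse limb holds primitive red cells from the yolk sac together with early definitive red cells from the liver. Several of these genes are not exclusive to red cells: Tal1, Nfe2 and Gfi1b are also known from megakaryocytes, Tal1 from mast cells and endothelium, and Tfrc from dividing cells of most kinds.

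The 250 bases before the start of 4 of the 9 genes are printed first. They are from the RefSeq promoter table (build GRCm38.p6, unlike the mm9 positions given with the expression values) and were chosen because each holds a GATA hexamer, the core letters bound by GATA factors. Each is written 5′ to 3′ on the strand of the gene, and capitals mark the hexamer; TTATCT and TTATCA are the reverse complements of AGATAA and TGATAA.
Alas2, chrX:150547167-150547416, plus strand: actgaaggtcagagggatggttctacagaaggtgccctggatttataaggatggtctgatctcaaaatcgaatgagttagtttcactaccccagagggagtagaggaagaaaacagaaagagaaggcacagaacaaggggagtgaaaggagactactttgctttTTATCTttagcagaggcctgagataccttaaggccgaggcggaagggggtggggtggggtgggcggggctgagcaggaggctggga
Klf1, chr8:84901732-84901981, plus strand: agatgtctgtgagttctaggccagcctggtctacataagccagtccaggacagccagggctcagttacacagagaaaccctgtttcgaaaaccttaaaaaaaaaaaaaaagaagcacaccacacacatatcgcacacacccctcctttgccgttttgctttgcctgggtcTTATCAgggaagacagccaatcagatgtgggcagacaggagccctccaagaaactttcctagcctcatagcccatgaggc
Epor, chr9:21963577-21963826, minus strand: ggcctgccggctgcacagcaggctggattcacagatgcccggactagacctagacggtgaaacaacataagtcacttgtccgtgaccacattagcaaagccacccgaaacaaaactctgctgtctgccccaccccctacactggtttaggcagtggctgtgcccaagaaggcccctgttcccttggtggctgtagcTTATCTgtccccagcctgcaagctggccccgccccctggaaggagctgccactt
Hemgn, chr4:46404184-46404433, minus strand: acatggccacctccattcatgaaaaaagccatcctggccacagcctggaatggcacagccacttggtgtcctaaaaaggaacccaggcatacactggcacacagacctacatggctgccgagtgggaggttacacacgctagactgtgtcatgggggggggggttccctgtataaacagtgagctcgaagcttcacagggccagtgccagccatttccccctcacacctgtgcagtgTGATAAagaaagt
The letters searched, on both strands, were AGATAA with its variant form AGATAG, as well as TGATAA with its variant form TGATAG. Of 7 genes with an entry in the table, 6 had at least 1 window with such a hexamer: Alas2 (86 bases before the start), Klf1 (80), Epor (54), Hemgn (13), Gfi1b (120) and 1 of the windows of Tal1 (205). Tfrc had none in either of its windows; Slc4a1 and Nfe2 had no entry. By window this was 6 of 9, and 26.5% of all 32851 promoter windows of that length hold one. A wider KLF-type pattern, CCNCNCCC on both strands, was in 7 of 9 windows (6 of the 7 genes) and in 45.9% of all windows. The core of the NF-E2 site, TGAGTCA, was in 0 of 9 windows and in 4.46% of all windows. These are matches of letters only, and binding was not measured.

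All values are the deposited FPKM, fragments scaled to transcript length and library size, added up over each gene's transcripts. Log2 ratios are log2((FPKM positive + 1) / (FPKM negative + 1)), a scale that compresses differences between low values; the percentages use FPKM with nothing added. With 1 library per group there is no replicate check and no test, so each difference describes these 2 libraries. A gene was called measured with at least 1 FPKM in either library, which held for 12096 genes, of which 1207 were at least 2-fold lower in the positive library and 488 at least 2-fold higher; with values rescaled to equal sums (TPM) the counts were 1611 and 1593. The median log2 ratio of measured genes was -0.27. Aligned sequence on transcripts summed to 0.687 gigabases for positive and 0.875 gigabases for negative cells.

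All 9 erythroid genes had a lower FPKM in ScxGFP-positive than in ScxGFP-negative cells. Summed over the 9, the level was 7.22 FPKM in positive and 141.6 FPKM in negative cells, 5.098% of the latter. On the FPKM + 1 scale 7 of the 9 were lower by 2-fold or more, Epor and Gfi1b differed by less, and 0 were higher by as much. Of all measured genes 9.98% were lower by 2-fold or more and 4.03% higher, and of all symbols without the filter 5.46% were lower. At 4-fold the count was 3 (Slc4a1, Alas2 and Tal1), beside 2.93% of measured genes. Of the 9, 8 were measured, 6 of them only through the negative library, so for those 6 a difference was favoured by the filter itself. The median log2 ratio was -1.34 over the 8 measured genes and -1.23 over all 9. In bulk RNA of this kind, fewer cells of a type and less RNA per cell cannot be told apart.

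**Figure D1:**
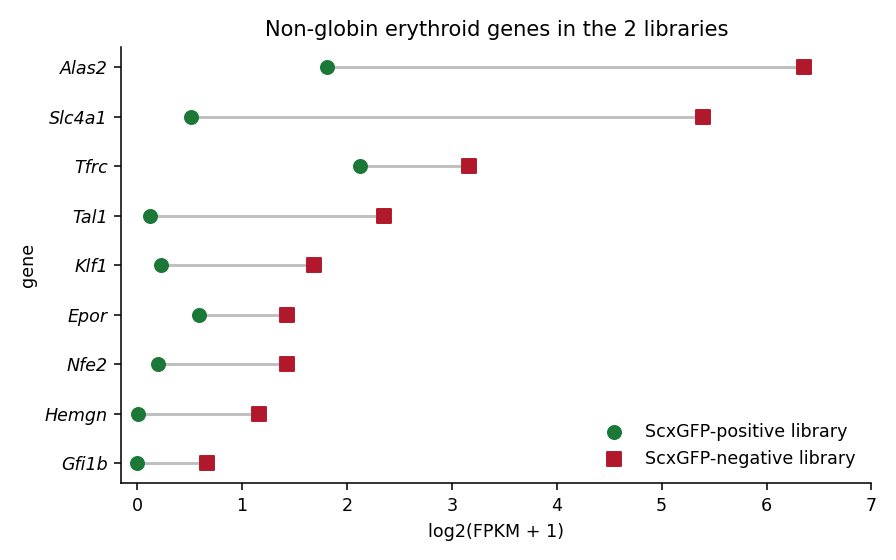
Level of each of the 9 genes as log2(FPKM + 1) on the horizontal axis, with a circle for the ScxGFP-positive and a square for the ScxGFP-negative library and a line joining both (1 library each, so no error bars). The square lies to the right of the circle for all 9 genes, with the longest lines for Slc4a1 and Alas2 and the shortest for Gfi1b.

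Slc4a1 encodes band 3, the chloride-bicarbonate exchanger and main anchor of the red-cell membrane skeleton. It stood at 0.424 FPKM in positive cells and 41.03 FPKM in negative cells (NM_011403, mm9 chromosome 11, 102210134 to 102226595). The positive level was 1.03% of the negative one and the log2 ratio -4.88, the widest of the 9, at rank 47 from the lowest among 12096 measured genes. About 4410 aligned bases lay behind the positive value and about 445835 behind the negative one, so both ends of this difference were covered.

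Alas2 encodes the erythroid 5-aminolaevulinate synthase, the first and rate-limiting enzyme of haem synthesis in red cells. It was the highest of the 9 in the negative library, at 81.1 FPKM, and stood at 2.51 FPKM in the positive library (mm9 chromosome X, 146981960 to 147005165). That is 3.10% of the negative level, a log2 ratio of -4.55 at rank 61 from the lowest. The gene was listed as 2 transcripts, which were not lowered by the same factor. NM_009653 stood at 2.06 FPKM against 36.3 FPKM, whereas NM_001102446 stood at 0.452 FPKM against 44.8 FPKM. The former thus made up 82.0% of the gene's FPKM in positive cells and 44.7% in the negative library. In the annotation at hand the protein-coding difference between these models is a stretch of 45 bases at the start of exon 3 of 11, kept in NM_009653 and spliced out in NM_001102446; it is printed because reads over it, and over the junction without it, are what separates them.
Alas2 exon 3 stretch, chrX:150552959-150553003, plus strand, GRCm38: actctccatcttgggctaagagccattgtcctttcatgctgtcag
Few reads can cover so short a stretch at the positive level, where the shares rest on about 9309 and 1998 estimated aligned bases over the whole of each model. No interval can be given for these shares, and with 1 library per group the shift between them was not tested.

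Among the transcription factors, Tal1 and Klf1 showed the wider differences. Tal1 encodes the basic helix-loop-helix factor SCL, needed for the formation of all blood lineages. It stood at 0.0845 FPKM in positive cells and 4.097 FPKM in negative cells (NM_011527, mm9 chromosome 4, 114732132 to 114744360), 2.06% of the negative level and a log2 ratio of -2.23. Klf1 encodes the erythroid Krüppel-like factor that activates adult beta-globin. It stood at 0.172 FPKM against 2.21 FPKM (NM_010635, mm9 chromosome 8, 87425827 to 87429194), 7.79% and a log2 ratio of -1.45. The positive values rest on about 803 and 603 aligned bases, so both folds are loosely bounded.

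Nfe2 encodes the large subunit of NF-E2, a factor of erythroid and megakaryocytic genes. It stood at 0.148 FPKM in positive cells and 1.68 FPKM in negative cells (NM_008685, mm9 chromosome 15, 103078649 to 103085847), 8.78% and a log2 ratio of -1.23. Gfi1b encodes a zinc-finger repressor needed for red cells and platelets. It was listed at 0 in the positive library and at 0.583 FPKM in negative cells (mm9 chromosome 2, 28464970 to 28477502), nearly all of it (99.99%) on the transcript NM_008114. Lying under 1 FPKM in both libraries, Gfi1b could not reach 2-fold on this scale, whose value for it was -0.66, and no fold is given against a value listed at 0.

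Hemgn encodes hemogen, a nuclear protein of blood-forming cells. It stood at 0.00656 FPKM in positive cells and 1.23 FPKM in negative cells (NM_053149, mm9 chromosome 4, 46406861 to 46417055), a log2 ratio of -1.15. The positive level was 0.531% of the negative one, the lowest percentage of the 8 genes above 0 in both libraries, but it rests on about 34.6 aligned bases. That is too little sequence to set its percentage apart from those of Slc4a1 or Tal1.

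As percentages, the receptor genes differed least. Epor, the gene of the erythropoietin receptor, was at 0.506 FPKM in positive cells and 1.69 FPKM in negative cells (NM_010149, mm9 chromosome 9, 21763343 to 21768020), 29.97% and a log2 ratio of -0.84. In the negative library Epor and Nfe2 were level, at 1.69 and 1.68 FPKM, while in the positive library Epor was the higher of the pair (0.506 and 0.148 FPKM). Tfrc, the gene of transferrin receptor 1, stood at 3.36 FPKM against 7.98 FPKM (NM_011638, mm9 chromosome 16, 32608982 to 32632880), 42.2% and a log2 ratio of -1.04. Tfrc was the highest of the 9 in the positive library and followed Alas2 and Slc4a1 in the negative one, and about 37749 aligned bases lay behind its positive value. Tfrc, which passed 2-fold narrowly, did not pass it after any rescaling: its log2 ratio was -0.77 once the median gene was set level, -0.81 after matching upper quartiles and -0.77 in TPM. Epor passed 2-fold in TPM (-1.07) and with a pseudocount of 0.1 (-1.56).

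Without a pseudocount the 9 genes fall into a wide range. For 7 of them the positive level was under 10% of the negative one, among them Gfi1b at a listed 0, and for Epor and Tfrc it was 29.97% and 42.2%; the median over the 9 was 3.10%. In the negative library the levels ran from Alas2 (81.1 FPKM) and Slc4a1 (41.03 FPKM) through Tfrc (7.98 FPKM), Tal1 (4.097 FPKM) and Klf1 (2.21 FPKM) to Epor, Nfe2, Hemgn (1.23 FPKM) and Gfi1b (0.583 FPKM). In the positive library the order was Tfrc, Alas2, Epor, Slc4a1, Klf1, Nfe2, Tal1, Hemgn and Gfi1b. With 1 library per group there is no spread to say which neighbours in these orders differ.

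**Figure D2:**
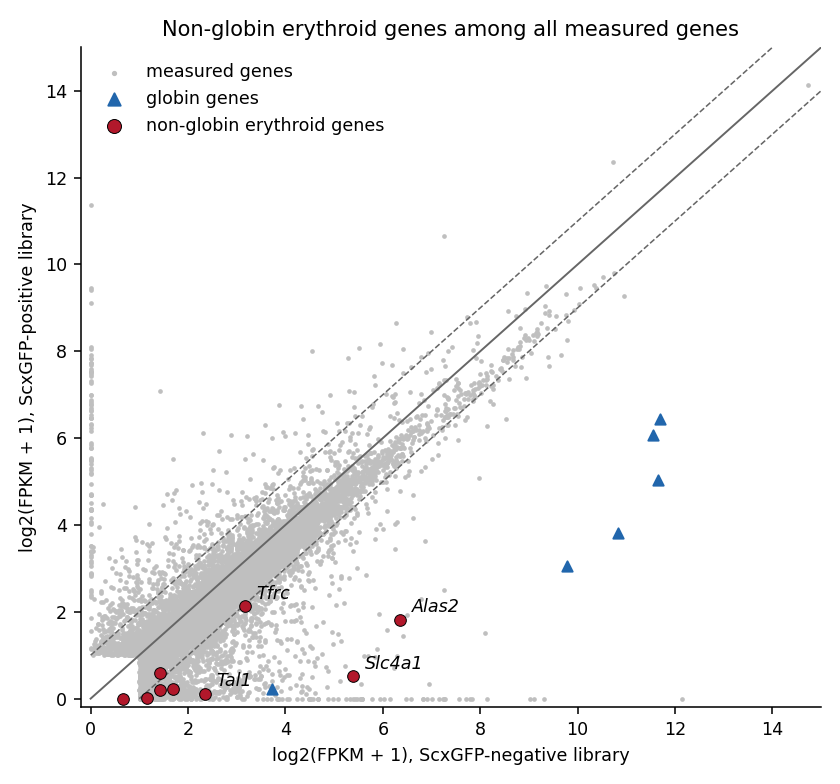
Each measured gene as a grey point by log2(FPKM + 1) in the ScxGFP-negative (horizontal) and ScxGFP-positive library (vertical), with the 9 erythroid genes as red circles and 6 globin genes as blue triangles; the solid line marks equal levels and the dashed lines 2-fold. Slc4a1 and Alas2 lie far to the lower right, Tfrc lies on the lower 2-fold line, and the globin genes except Hbb-bh1 lie farther right still.

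The globin genes encode the main protein of red cells, which the products of the 9 genes help to express and to fill with haem. Of 8 listed, 6 had an estimate in both libraries, and their positive levels were 0.719% to 2.60% of the negative ones; Hba-a1 and Hba-a2 failed in the negative library, and how reads were split among the adult beta-globin copies is uncertain. The embryonic chains Hbb-y, Hba-x and Hbb-bh1 stood at 2.60%, 2.23% and 1.29%. Hemgn (0.531%) and Gfi1b (listed at 0) lay below the globin range, Slc4a1 (1.03%) and Tal1 (2.06%) inside it and Alas2 (3.10%) just above it, while Klf1, Nfe2, Epor and Tfrc lay above it by a wider margin. The positive values of Hemgn, Gfi1b, Tal1, Klf1 and Nfe2 rest on under 1000 aligned bases each. Their places against this range are therefore loosely bounded. Summed, the 6 globin genes went from 12172 FPKM in the negative to 204.2 FPKM in the positive library, 1.68%.

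The genes that share a pathway with the 9 were taken from 6 lists with 95 listed symbols, of which 81 were measured. On the FPKM + 1 scale 40 of the 81 were lower in positive cells by 2-fold or more and 41 differed by less. On that scale 0 were higher by as much. Of all measured genes 9.98% were at least 2-fold lower. Some of the 81 reached 1 FPKM only in the negative library, so for those a difference was favoured by the filter. The median log2 ratio of these 81 was -0.995, beside -0.27 over all measured genes. The lists differed in how many of their genes took part.

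Enzymes and other proteins of late red-cell maturation included 11 of 13 measured genes lower by 2-fold or more (median log2 ratio -1.47). Car2, a carbonic anhydrase that hydrates carbon dioxide, stood at 1.202 FPKM against 57.9 FPKM, and Trim10, a gene required for terminal erythroid differentiation, at 0.0491 FPKM against 7.09 FPKM. Xpo7, a nuclear export receptor, had the highest ratio of the list at -0.67 (2.68 FPKM against 4.85 FPKM).

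The membrane and skeleton genes, partners of Slc4a1, were lower by 2-fold or more in 8 of 16 measured cases, around a median of -1.01. That count was 13, 14 and 13 under the 3 TPM scalings (11, 12 and 11 for the late maturation genes) and 12 for both lists at pseudocount 0.1, but 3 with a pseudocount of 5 or a minimum of 5 FPKM, so the order of these lists by count depends on the scale. Kel, the Kell blood group gene, stood at 0.0360 FPKM against 4.07 FPKM. Aqp1, the water channel gene, went the opposite way, at 2.80 FPKM in positive cells and 0.902 FPKM in negative cells. Its log2 ratio of 0.997 fell just short of 2-fold on the FPKM + 1 scale. Without a pseudocount its positive level was 310.1% of the negative one, past 2-fold. Aqp1 is not exclusive to red cells, and which cells gave its higher positive value was not tested.

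In haem synthesis, Alas2 lay below the genes of all enzymes that follow it. Of the 8 other genes of the pathway, all measured, 2 passed 2-fold downwards, and the median log2 ratio was -0.65; 1 passed after each rescaling and with a pseudocount of 5. Fech, encoding ferrochelatase, the last step, which inserts iron, stood at 2.21 FPKM against 23.7 FPKM, a log2 ratio of -2.94. Urod lay at the limit with 7.31 FPKM against 15.7 FPKM (-1.003), and Ppox was near level at 6.74 FPKM against 7.14 FPKM. Alas1, the housekeeping form of the enzyme that Alas2 encodes, stood at 2.71 FPKM against 3.40 FPKM, 79.7% of the negative level where Alas2 was at 3.10% (Alas1 was chosen after its values were seen).

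Among genes of iron uptake, transport and storage 7 of 15 measured fell below the 2-fold line (median -0.68). Slc25a37, which encodes mitoferrin 1, the importer of iron into erythroid mitochondria, stood at 3.93 FPKM against 110.0 FPKM, 3.58% of the negative level and close to the percentage of Alas2. Trf, the transferrin gene, stood at 0.303 FPKM against 7.46 FPKM, and Aco1, whose protein is the iron-sensing regulator IRP1, was level at 4.79 FPKM against 4.73 FPKM. Alas2 and Tfrc are tied to this group by iron-responsive elements, short hairpins in the messenger RNA that IRP1 and IRP2 bind when iron is low; in the 5′ UTR such a hairpin blocks translation, and in the 3′ UTR of Tfrc it protects the transcript from decay. The hairpins were searched in the GENCODE transcripts as a C, a stem of 5 paired bases and a loop of CAGTG followed by A, C or T, and are printed as DNA letters on the strand of the gene (GRCm38) with the loop in capitals.
Alas2 5′ UTR, chrX:150547464-150547480, plus strand: cgtcctCAGTGCagggc
Tfrc 3′ UTR, chr16:32631225-32631241, plus strand: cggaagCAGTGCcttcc
Tfrc 3′ UTR, chr16:32631604-32631620, plus strand: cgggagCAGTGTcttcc
Tfrc 3′ UTR, chr16:32631669-32631685, plus strand: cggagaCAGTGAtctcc
Tfrc 3′ UTR, chr16:32631716-32631732, plus strand: cgggaaCAGTGTttccc
Fth1 5′ UTR, chr19:9982738-9982754, plus strand: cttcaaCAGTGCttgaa
Ftl1 5′ UTR, chr7:45459785-45459801, minus strand: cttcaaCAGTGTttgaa
Slc40a1 5′ UTR, chr1:45925471-45925487, minus strand: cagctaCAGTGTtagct
The pattern was found 1 time in each Alas2 model and 4 times in Tfrc, and 0 times in the transcripts of the other 7 erythroid genes. The ferritin genes Fth1 and Ftl1 and the iron exporter gene Slc40a1, which encodes ferroportin, carry it in the 5′ UTR as Alas2 does; these 3 were searched, printed and named after their values were seen. Fth1 stood at 86.5 FPKM against 370.4 FPKM and Ftl1 at 232.5 FPKM against 669.3 FPKM, 23.3% and 34.7% of the negative level, between Alas2 and Tfrc. Slc40a1 stood at 1.79 FPKM against 2.99 FPKM, 59.9% of the negative level and above Tfrc. Translation and transcript stability were not measured.

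In the list of other erythroid transcription factors, 7 of 16 measured genes passed 2-fold downwards (median -0.97), and 3 did with a pseudocount of 5. The list is not confined to partners of TAL1, KLF1 and NF-E2, as it also holds Nfe2l1 and Nfe2l2. Ikzf1, the Ikaros gene of lymphoid and other blood cells, stood at 0.184 FPKM against 16.1 FPKM, and Lmo2, whose protein bridges TAL1 and GATA1, at 0.680 FPKM against 11.2 FPKM. Nfe2l1, a broadly expressed relative of Nfe2, was level at 15.2 FPKM against 14.7 FPKM, where Nfe2 was at 8.78%. Gata1, named after its values were seen, was listed at 0 in the positive library and at 1.53 FPKM in negative cells.

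In the list for the erythropoietin pathway, 5 of 13 measured genes passed 2-fold downwards (median -0.71), and 3 did with a pseudocount of 5. The list is not confined to genes downstream of Epor, as it also holds Epo, Kit and Kitl, and Kit was among the 5. The lowest were Ptpn6, a phosphatase that ends receptor signalling (0.150 FPKM against 6.26 FPKM), and the kinase gene Lyn (0.451 FPKM against 7.87 FPKM), both also well known from leukocytes. Kitl, which encodes stem cell factor, was the highest, at 1.91 FPKM in positive cells and 1.52 FPKM in negative cells. Jak2, Stat5a and Stat5b, the core of the pathway and named after their values were seen, were within 2-fold on the FPKM + 1 scale. Jak2 and Stat5b were at 71.3% and 70.6% of the negative level and Stat5a at 30.8% (0.396 FPKM against 1.28 FPKM).

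**Figure D3:**
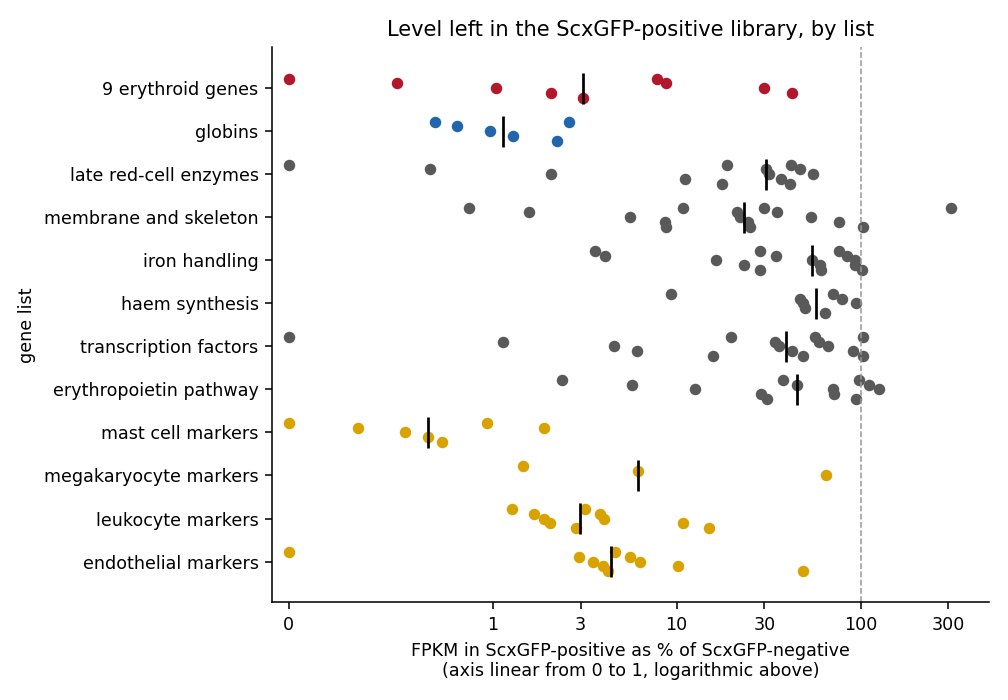
FPKM in the ScxGFP-positive library as a percentage of that in the ScxGFP-negative library (horizontal axis, linear from 0 to 1 and logarithmic above) for the 9 erythroid genes, the measured globin genes, the measured genes of 6 erythroid pathway lists and those of 4 lists of markers of other cells; each point is a gene, black bars are medians and the dashed line marks equal levels. The 9 genes spread from a listed 0 to 42.2% with a median of 3.10%, while haem synthesis has a median of 56.9% with Fech at 9.35%.

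Markers of other cells that can express some of the 9 were lower in the positive library too. Of all measured genes 9.98% were at least 2-fold lower. Most measured genes of the mast cell, leukocyte and endothelial lists reached 1 FPKM only in the negative library. For those a difference was favoured by the filter itself. Mast cell genes went from a summed 407.0 FPKM in the negative to 3.26 FPKM in the positive library, with 7 of 7 measured genes (of 10 listed) at least 2-fold lower and Cpa3 at 1.85 FPKM against 271.3 FPKM. Leukocyte genes went from 422.7 FPKM to 12.2 FPKM, with 10 of 10 at least 2-fold lower and Ptprc at 0.125 FPKM against 4.40 FPKM. Endothelial genes went from 61.7 FPKM to 3.76 FPKM, with 9 of 10 measured lower (of 11 listed) and Cdh5 at 0.447 FPKM against 15.3 FPKM. Cldn5 and Tek were named after their values were seen. Cldn5 was listed at 0 in the positive library, and Tek, the measured gene within 2-fold, stood at 1.02 FPKM against 2.10 FPKM.

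Megakaryocyte and platelet genes were scarce in both libraries, at a summed 29.5 FPKM in the negative and 3.17 FPKM in the positive library. Only 3 of 16 listed genes were measured, 2 of them at least 2-fold lower. Of the 3, only Pf4 reached 1 FPKM in both libraries. Pf4, the platelet factor 4 gene, which some macrophages also express, held most of that sum at 21.6 FPKM against 1.33 FPKM in the positive library. Itga2b, which defines the lineage, stood at 0.399 FPKM against 0.0785 FPKM, and 6 of the 16 were listed at 0 in the positive library. Genes of early blood progenitors and myeloid precursors had 6 of 9 measured genes lower (of 10 listed; summed 90.3 FPKM against 26.8 FPKM in the positive library). Cd93, Sfpi1, Cebpa and Mpo, counted among the lower, reached 1 FPKM only in the negative library. The part of each of these cell types in the values of Tal1, Nfe2, Gfi1b, Epor and Tfrc was not tested.

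The nearest listed gene on each side in mm9 gave 18 neighbours, of which 15 were measured; 14 of these were within 2-fold, 1 was at least 2-fold lower, and the median log2 ratio was -0.35. Over all measured genes 9.98% were lower by as much and the median was -0.27, so the neighbours stood near the background. Apex2, a DNA repair gene that ends 884 bases from Alas2, stood at 4.04 FPKM in positive cells and 3.20 FPKM in negative cells. Dnase2a, 3328 bases from Klf1, stood at 0.950 FPKM against 1.49 FPKM, and Hnrnpa1, 3262 bases from Nfe2, at 15.7 FPKM against 15.1 FPKM. The exception was Pdzk1ip1, 16952 bases from Tal1, listed at 0 in the positive library and at 3.18 FPKM in negative cells. Stil, on the other side of Tal1 at 16328 bases, was at 4.06 FPKM against 5.35 FPKM. None of the 9 genes (0) overlapped another listed gene other than small RNA genes, which bears on a protocol that does not mark strand.

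**Figure D4:**
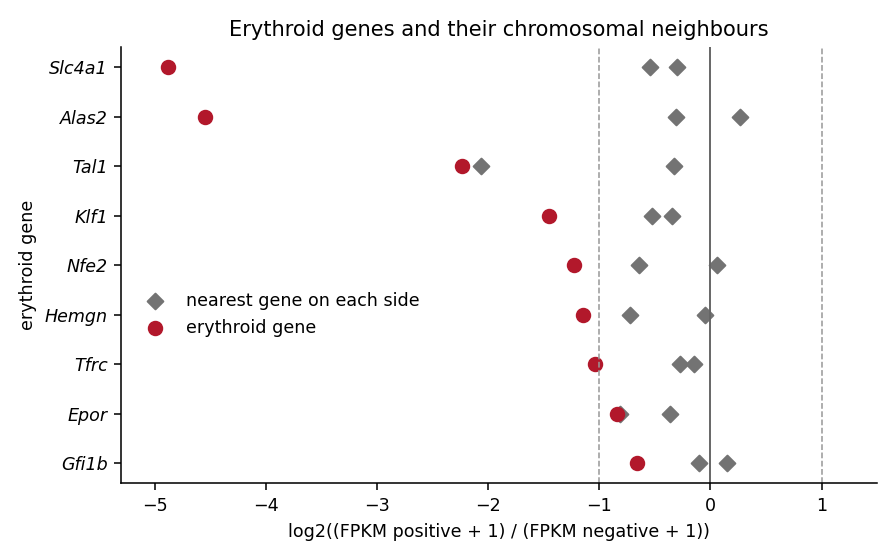
Log2((FPKM positive + 1) / (FPKM negative + 1)) for each of the 9 erythroid genes (red circles) and the nearest listed gene on each side in mm9 (grey diamonds); the solid line marks equal levels and dashed lines 2-fold. The diamonds lie between the 2-fold lines except for Pdzk1ip1 beside Tal1, at -2.06.

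Genes whose 2 values were nearest to those of the most abundant of the 9 came from unlike sources. By distance on the log2(FPKM + 1) plane of the 2 libraries, outside all lists, the nearest to Slc4a1 were Krtdap, an epidermal gene (0.330 FPKM against 34.0 FPKM), and the microRNA gene Mir1969 (listed at 0 against 40.9 FPKM). Nearest to Alas2 were Perp, a desmosome gene (1.98 FPKM against 67.1 FPKM), and Apoe, an apolipoprotein gene (2.87 FPKM against 59.5 FPKM). Nearest to Tfrc were Tspan13 (3.33 FPKM against 7.94 FPKM) and Swap70 (3.39 FPKM against 8.09 FPKM). With only 2 libraries, such likeness rests on a pair of values per gene.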

How the data were processed

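Per the labels' protocols, sorted cells were frozen, a Qiagen micro kit gave total RNA, and NuGEN Ovation chemistry amplified it to cDNA. That chemistry does not mark strand. The build was mm9 and the alignment tools were TopHat 1.4.1 and Bowtie 0.12.7, per the submitters' processing notes; the table layout is that of Cufflinks, whose version is not stated there. The authors' deposited FPKM is per RefSeq transcript, per the file headers. The deposited coverage is the estimated depth of aligned bases per transcript; times the deposited transcript length it gave the aligned bases quoted. Positions in the files count from 0 (length equals end minus start in 3284 rows, end minus start plus 1 in 0), so 1 was added to starts.

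FPKM was summed per symbol. Symbols with a failed row (5 rows for positive cells, 6 for negative) were missing. The pseudocount was 1, the filter 1 FPKM in either library, the call 2-fold. The arithmetic of the calls was tested on simulated ratios, which says nothing of replicate error. FPKM is not a count and no count test was run. Software was Python 3.11.15, pandas 2.3.3 and numpy 2.4.6.

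The 9 genes and all lists were chosen with earlier results of these data known. Named genes were the 9, the 2 lowest and the highest ratio of each pathway list, fixed markers, and the 2 nearest genes of each of the 9 at 5 FPKM or more. Most other names are marked as chosen later. Of listed genes, Flvcr1, Tfr2 and Ahsp were not analysed here, and some items that the rule would name are not reported here. Promoter windows, motifs, hairpins and neighbours were added after the values were seen. Alternatives were other pseudocounts, filters, scalings, thresholds and transcript choices.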

Additional observations from a re-analysis of the deposited data

How the results depend on the processing

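All 9 genes kept a negative log2 ratio under the 12 alternatives, most of which cannot change a sign. Only the scalings could, along with the transcript choice for genes with more than 1 transcript. Gfi1b, listed at 0 in the positive library, could not turn positive under any of them. The count of genes at least 2-fold lower, 7 as reported, was 2 with a pseudocount of 5 (Slc4a1 and Alas2), 3 with a minimum of 5 FPKM, which leaves 3 genes, and 3 at a threshold of 4-fold. It was 6 with the median ratio set to 1 or equal upper quartiles, where Tfrc drops out, and 8 in TPM, where Tfrc drops out and Epor and Gfi1b enter. The median log2 ratio of -1.34 was -3.37 at pseudocount 0.1, -0.56 at pseudocount 5 and -4.55 with a minimum of 5 FPKM. It was -2.42 in TPM, -2.49 in TPM without haemoglobin genes and -2.44 in TPM without transcripts shorter than 200 bases; TPM values are larger numbers, so the pseudocount weighs less. The median positive level of the measured genes among the 9, 5.45% of the negative one, was 3.10% without the filter and 3.10% with a minimum of 5 FPKM. The pathway lists' count of 40 lower genes was 23 with a pseudocount of 5 and 30 to 50 under the other alternatives that keep the 2-fold threshold. It was not taken at 4-fold. For these lists only the count of lower genes was followed across the alternatives, and Aqp1 is past 2-fold upwards without a pseudocount. The central log2 ratio over every measured gene, -0.27 as deposited, was 0.0093 with the median ratio set to 1, -0.031 with equal upper quartiles and 0.12, 0.044 and 0.23 under the 3 TPM scalings. Genes at least 2-fold lower and higher over all measured genes numbered 1207 and 488, and 936 and 719 with the median ratio set to 1, 967 and 675 with equal upper quartiles, 1714 and 1468 in TPM without haemoglobin genes, 1497 and 1801 in TPM without short transcripts, 1782 and 712 at pseudocount 0.1, 394 and 222 at pseudocount 5, 658 and 323 with a minimum of 5 FPKM, and 354 and 166 at 4-fold. Of 165 values for single genes and lists, 44 moved by more than 1.5 times. Of the gene ratios among them 0 changed sign, and the list counts carry no sign. No paired analysis was possible because each group has 1 library. Depth limits Hemgn, Klf1, Nfe2, Tal1 and Gfi1b in the positive library, which rest on under 1000 aligned bases each.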
